A study of Mus musculus with 3 samples.

Results

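The genes described here are 6 leukocyte adhesion molecules of the vessel wall, *Icam1*, *Icam2*, *Vcam1*, *Sele*, *Selp* and *Selplg*. They were chosen by name and make up 6 of the 27,994 genes in the count table. All 6 were found, and each was followed across the 7 deposited cell clusters, numbered 0 to 6. The data are single-cell transcriptomes of adult mouse heart endothelium. Endothelial cells of adult mice that carry a green fluorescent protein (GFP) were sorted as positive for GFP, CD31 and VE-cadherin and negative for CD41, CD45, PDGFRA and PDGFRB. They were used fresh (0 h) or aggregated for 24, 48, 72 or 96 h with stromal cells of the E11.5 embryonic aorta region that descend from a Mesp1 lineage, named Mesp1(der) PSCs, in medium with an interleukin (IL-3), SCF and Flt3L. After culture, cells positive for GFP, CD31 and VE-cadherin and negative for PDGFRA were sorted again, without a gate on CD45, and all time points were joined into 3 pools (A, B and C).

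Leukocytes leave the blood in steps. E-selectin (*Sele*) and P-selectin (*Selp*) on the endothelium bind sugars on PSGL-1 (*Selplg*), a mucin of leukocytes, and let the cells roll. Leukocyte integrins then bind ICAM-1 (*Icam1*), ICAM-2 (*Icam2*) and VCAM-1 (*Vcam1*) and hold the cell firmly. ICAM-2 is present on resting endothelium, whereas *Sele*, *Vcam1* and *Icam1* are classical targets of NF-kB after TNF or interleukin-1. P-selectin is also stored in granules of endothelium and platelets, and VCAM-1 is found on some stromal cells.

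The matrix held 9,562 cells with a median of 21,225.5 unique molecular identifiers (UMIs, each a captured RNA molecule) per cell. Barcodes carried 1 of 3 library suffixes, with 2,097 to 3,958 cells each, and 13 barcodes occurred in more than 1 library. Neither the pool behind a suffix nor the time point of a cell was given in the material used here. The matrix was therefore treated as 1 sample, no test was made, and values carry a 95% counting interval and the range over the 3 libraries, of unknown pool. The clusters were built from these same counts, so differences between them are descriptions. All 7 pan-endothelial markers were detected in every cluster, with a summed level of 25.9 to 42.9 UMIs per 10,000 in clusters 0, 1 and 2 against 3.33 to 5.50 in the others. Cluster 0 was arterial-like, led by *Gja5* and *Gja4*. Cluster 2, the largest with 5396 cells, was endothelial-like and served as the reference. Cluster 1, with 799 cells, held endothelial and inflammatory genes and was kept under its number. Cluster 3 was led by *Dppa5a* and *Utf1*, cluster 4 was fibroblast-like, cluster 5 held macrophage and granulocyte genes, and cluster 6 was megakaryocyte-like. Median depth ran from 7875 UMIs per cell in cluster 1 to 36,065.5 in cluster 5, and shares of cells are therefore given after thinning each cell to 5,000 UMIs.

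In cluster 1, the 4 genes *Icam1*, *Vcam1*, *Sele* and *Selp* had their highest level, and in each of them all 3 libraries of cluster 1 lay above every library of every other cluster. *Icam2* had another order, with falling from cluster 0 through cluster 1 to cluster 2, and *Selplg* was highest in cluster 5. Against cluster 2, a gene was called higher or lower if its level differed at least 2-fold and in the same direction in each library, among genes with at least 0.1 UMIs per 10,000 in the higher cluster. In cluster 1, 5 of the 6 genes reached that minimum and 4 were called higher, beside 20.0% of all 9191 genes tested, and none was called lower, beside 10.4%. *Vcam1*, *Sele* and *Selp* reached the minimum only through their level in cluster 1, so their count adds nothing beyond the values given for each.

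**Figure D1:**
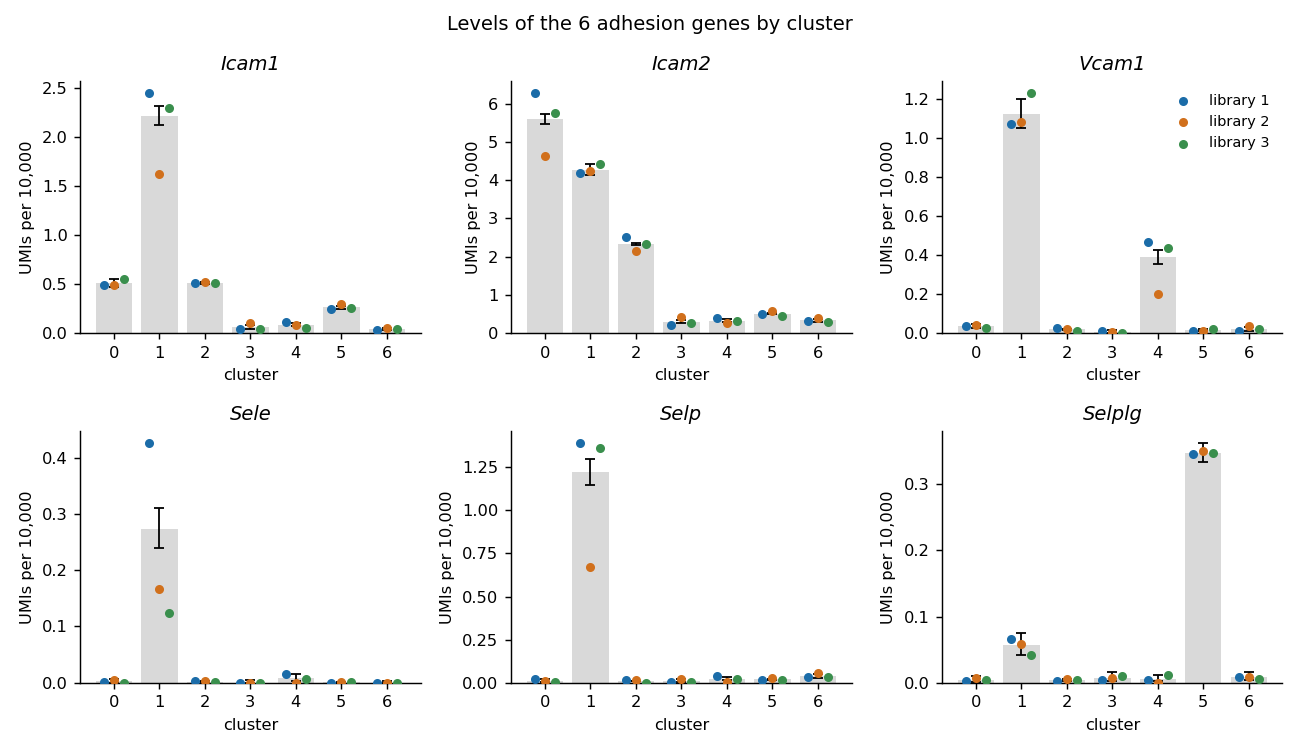
Level of each gene (y axis, UMIs per 10,000 UMIs of the cluster) in clusters 0 to 6 (x axis). Bars give the cluster with its 95% Poisson interval and points the 3 barcode libraries; *Icam1*, *Vcam1*, *Sele* and *Selp* stand highest in cluster 1, *Icam2* in cluster 0 and *Selplg* in cluster 5.

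The selectins come first. *Sele* (chr1:164048234-164057677, plus strand, GRCm38) encodes the selectin made by activated endothelium. It stood at 0.426, 0.167 and 0.124 UMIs per 10,000 in libraries 1, 2 and 3 of cluster 1 and at 0.00253, 0.00322 and 0.000807 in cluster 2. The libraries of cluster 1 thus differed among themselves, with library 1 highest, but did not overlap with those of cluster 2. Summed over libraries, the ratio was 128-fold (log2 ratio 7.0, interval 6.45 to 7.60) and rested on 230 UMIs in cluster 1 and 30 in cluster 2. Without library 1 the log2 ratio was 6.19. Cluster 1 held 82.7% of all *Sele* UMIs in the table. No *Sele* UMI was found in clusters 3 and 6, where 0 of 239 and 0 of 309 thinned cells allow a share of cells with a UMI at this depth of up to 1.26% and 0.971%, taking 3 counts as the limit.

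*Selp* (chr1:164115264-164150026, plus strand) lies on the same chromosome and encodes the selectin of endothelial and platelet granules. Its level in libraries 1 to 3 of cluster 1 was 1.39, 0.673 and 1.36 UMIs per 10,000, and in cluster 2 it was 0.0177, 0.0138 and 0.00121. Library 2 was lowest in cluster 1 and library 3 lowest in cluster 2, and the 2 clusters did not overlap. The ratio was 115-fold (log2 ratio 6.84, interval 6.59 to 7.10), and without library 3 the log2 ratio was 6.20. The megakaryocyte-like cluster 6 came second, at 0.0399 UMIs per 10,000 (libraries 0.0330, 0.0561 and 0.0318), 3.74-fold above cluster 2 and higher in 3 of 3 libraries. This was below the minimum level for a call, and its range overlapped with that of cluster 4. Of the 310 cells of cluster 6, 32 held a *Selp* UMI, with at most 4 UMIs in a cell, against up to 94 in a cell of cluster 1. Clusters 0 and 2, both endothelial, were at the low end with 0.0119 and 0.0107.

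*Vcam1* (chr3:116109949-116129688, minus strand), the ligand of the leukocyte integrin VLA-4, was called higher in both cluster 1 and cluster 4. In cluster 1 it measured 1.07, 1.08 and 1.23 UMIs per 10,000 in the 3 libraries, the closest agreement among the genes called higher there. In the fibroblast-like cluster 4 it measured 0.469, 0.203 and 0.435, below cluster 1 and above all others without overlap. Both clusters stood far above cluster 2, at 0.0249, 0.0186 and 0.0125. The ratio to cluster 2 was 60.6-fold in cluster 1 (log2 ratio 5.92, interval 5.72 to 6.12) and 21.1-fold in cluster 4 (log2 ratio 4.40, interval 4.17 to 4.62). Clusters 1 and 4 together left few *Vcam1* UMIs to the rest, holding 51.6% and 25.2% of them. The arterial-like cluster 0, at 0.0350, and clusters 6, 2, 5 and 3 formed a series in which neighbours overlapped.

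*Icam1* (chr9:21015985-21028817, plus strand), the ligand of the integrins LFA-1 and Mac-1, was detected in all 3 endothelial clusters. Its level in cluster 1 was 2.45, 1.63 and 2.30 UMIs per 10,000 in libraries 1 to 3, 4.32-fold that of cluster 2 (log2 ratio 2.11, interval 2.04 to 2.19). Clusters 2 and 0 could not be told apart, at 0.514 and 0.512, with overlapping libraries and a log2 ratio of -0.01 (interval -0.13 to 0.11). Cluster 5 followed at 0.262, 1.96-fold below cluster 2, short of the 2-fold mark. Clusters 4, 3 and 6 were lowest, between 0.0427 and 0.0836, and their libraries overlapped in that order.

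Promoter windows of RefSeq on GRCm38.p6 were found for 3 of the 6 genes, *Icam1*, *Sele* and *Selp*, and not for *Icam2*, *Vcam1* and *Selplg*. The 250 bases before the transcript start are shown for these 3 because these genes were called higher together in cluster 1. Both strands were searched over the windows of 300 bases, which run 50 bases past the start. The letters searched were GGANNTTCC, the core of a kappa B site, TGANTCA, the AP-1 site, and TATAAA, the TATA box, with the longer NF-kB consensus by its name. Capitals mark the kappa B core and the AP-1 site. The windows before the start are chr9:21015690-21015939 for *Icam1*, chr1:164047984-164048233 for *Sele* and chr1:164115014-164115263 for *Selp*, all on the plus strand.
Icam1: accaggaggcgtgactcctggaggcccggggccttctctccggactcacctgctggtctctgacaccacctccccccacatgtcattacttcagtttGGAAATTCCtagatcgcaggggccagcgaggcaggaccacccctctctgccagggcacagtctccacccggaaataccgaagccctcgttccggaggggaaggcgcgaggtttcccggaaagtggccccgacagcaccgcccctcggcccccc
Sele: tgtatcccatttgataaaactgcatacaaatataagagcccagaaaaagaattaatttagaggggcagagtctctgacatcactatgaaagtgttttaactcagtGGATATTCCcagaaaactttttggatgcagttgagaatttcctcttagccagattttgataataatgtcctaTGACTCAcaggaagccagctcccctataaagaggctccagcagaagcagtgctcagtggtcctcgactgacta
Selp: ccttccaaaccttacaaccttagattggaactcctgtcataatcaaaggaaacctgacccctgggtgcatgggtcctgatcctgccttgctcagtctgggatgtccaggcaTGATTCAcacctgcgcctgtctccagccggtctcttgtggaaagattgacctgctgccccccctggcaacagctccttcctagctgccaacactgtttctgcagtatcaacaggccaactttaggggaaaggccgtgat
The kappa B core was found at 153 to 145 bases before the start of *Icam1* and 145 to 137 bases before that of *Sele*, and in 4.26% of all 32,817 windows. The AP-1 letters were found 73 to 67 bases before *Sele* and 139 to 133 bases before *Selp*, and in 7.81% of all windows. TATAAA was found 49 to 44 bases before *Sele* and 14 to 19 bases after the start of *Icam1*, whose start in GENCODE lies further downstream at position 21015985, and in 13.6% of all windows. The longer NF-kB consensus was in 8.46% of all windows and in none of these 3. A match of letters is a description and no evidence of binding.

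*Icam2* (chr11:106377656-106388075, minus strand), the constitutive endothelial ICAM, ranked the endothelial clusters differently. Its level was 6.27, 4.63 and 5.77 UMIs per 10,000 in the arterial-like cluster 0, 4.18, 4.24 and 4.42 in cluster 1 and 2.50, 2.15 and 2.33 in cluster 2. These 3 clusters did not overlap in any library. Cluster 0 was 2.40-fold above cluster 2 (log2 ratio 1.26, interval 1.22 to 1.30) and cluster 1 was 1.83-fold above it, not called. When cells of clusters 0, 1 and 2 with a *Ptprc* or *Spi1* UMI, both leukocyte genes, were left out, the log2 ratio of cluster 1 went from 0.87 to 1.01. The 4 clusters with few endothelial markers lay between 0.296 and 0.504.

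*Selplg* (chr5:113818536-113832644, minus strand), the only one of the 6 that is mainly a leukocyte gene, gave 0.346, 0.350 and 0.347 UMIs per 10,000 in the 3 libraries of cluster 5. These values were nearly equal, and cluster 5 held 94.1% of all *Selplg* UMIs. The ratio to cluster 2 was 84.2-fold (log2 ratio 6.40, interval 6.02 to 6.80). Cluster 1 was second at 0.0571, above the remaining clusters without overlap but under the minimum level for a call. Those 5 clusters ranged from 0.00413 to 0.00836 and neighbours in that order overlapped.

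In the arterial-like cluster 0, 2 of the 6 genes reached the minimum level, and *Icam2* was called higher, beside 9.15% of all genes called higher and 2.77% lower. *Icam1* and *Icam2* were both called lower in cluster 3 (12.9% of all genes higher and 22.3% lower), cluster 4 (13.8% higher and 6.60% lower) and cluster 6 (10.9% higher and 17.2% lower). The log2 ratio of *Icam1* was -3.06, -2.62 and -3.59 in these clusters and that of *Icam2* -2.98, -2.83 and -2.81. In these comparisons *Icam1* reached the minimum only through cluster 2. *Vcam1* was called higher in cluster 4, where 3 genes reached the minimum, *Vcam1* only through its level in cluster 4. In cluster 3, which had 44 *Icam1* UMIs, the *Icam1* log2 ratio became -3.69 without library 2. Cluster 5 had 3 genes at the minimum level. *Selplg* was called higher, beside 10.4% of all genes, and *Icam2* lower, at a log2 ratio of -2.21, beside 15.1%. *Selplg* reached the minimum only through cluster 5, so its call adds nothing beyond its values.

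At equal depth the genes separated by how many cells held a UMI. *Icam2* was found in 88.6% of the arterial-like cells (interval 86.1 to 90.9), 73.4% of those in cluster 1 and 64.9% of those in cluster 2. *Icam1* was found in 34.6% of cluster 1 (31.2 to 38.2), 20.8% of cluster 0 and 22.8% of cluster 2. Clusters 0 and 2 again could not be told apart for *Icam1*, and cluster 1 lay above both. *Vcam1* was found in 20.9% of cluster 1 and 8.79% of cluster 4, *Selp* in 11.3% of cluster 1 and *Sele* in 5.64%, and *Selplg* in 15.0% of cluster 5.

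For comparison, cluster 3, which was led by germ-cell and pluripotency genes, held a UMI of *Icam1* in 4.18%, of *Icam2* in 17.2%, of *Vcam1* in 0.418% and of *Selp* in 0.837% of its 239 cells, and of *Sele* and *Selplg* in none. Its median depth was 23,684 UMIs before thinning, and how much of its counts came from free RNA was not tested. In cluster 2, *Vcam1* was found in 0.911%, *Sele* in 0.112%, *Selp* in 0.391% and *Selplg* in 0.298% of cells. At this depth these 4 shares lay within the intervals of cluster 3, and no difference between the 2 clusters is read from them. For *Selp* in cluster 6 the thinned share, 1.94%, also lay within the interval of cluster 3, whereas its level of 0.0399 UMIs per 10,000 was above the 0.0126 of cluster 3 without overlap between libraries. Shares were also taken without thinning, with the threshold of 0.5 counts per 10,000 of the study's methods. In cluster 1 *Icam1* was then found in 47.1%, *Vcam1* in 26.3%, *Selp* in 13.1% and *Sele* in 7.51% of cells. In cluster 2 these shares were 41.5%, 1.32%, 0.519% and 0.185%. *Icam1* was found in 38.3% of cluster 0, so for this gene the endothelial clusters lay closer together than after thinning.

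**Figure D2:**
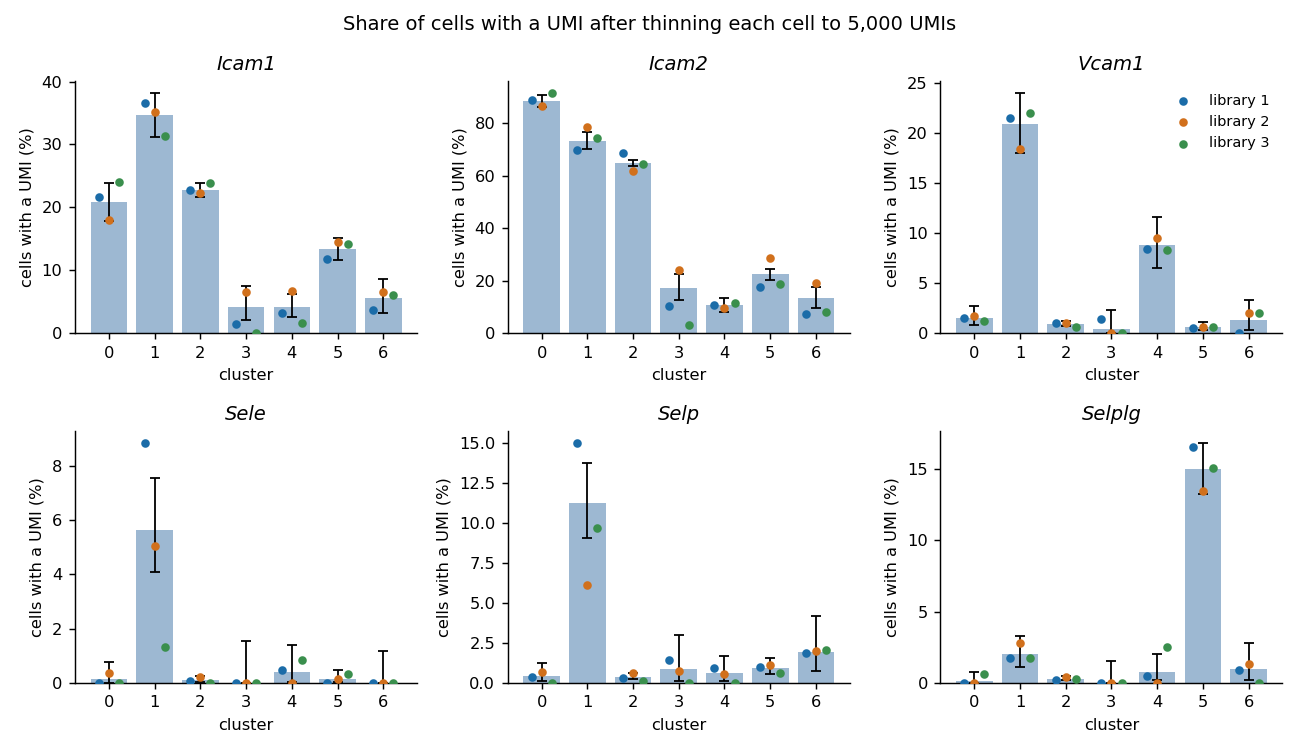
Share of cells with at least 1 UMI of each gene (y axis, percent) in clusters 0 to 6 (x axis) after each cell was thinned to 5,000 UMIs. Bars carry exact 95% binomial intervals and points are the 3 libraries; *Icam2* reached 88.6% in cluster 0, whereas *Sele* reached 5.64% in cluster 1.

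Within cluster 1 the transcripts of the 4 genes called higher sat in few cells. The 40 cells with the most UMIs of the gene, 5% of the cluster, held 87.8% of all *Sele*, 86.4% of *Selp*, 63.0% of *Vcam1* and 51.4% of *Icam1* UMIs in it. For *Icam2* the same number of cells held 22.3%. *Sele* was seen in 68 of the 799 cells, *Selp* in 113, *Vcam1* in 216, *Icam1* in 383 and *Icam2* in 647. Single cells reached 111 UMIs of *Vcam1*, 102 of *Icam1*, 94 of *Selp* and 21 of *Sele*, while the median in cells with a UMI was 2 to 3. When the 8 cells with most UMIs of the gene were left out, the level in cluster 1 was still 0.139 for *Sele*, 0.691 for *Selp*, 0.754 for *Vcam1* and 1.81 for *Icam1*.

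**Figure D3:**
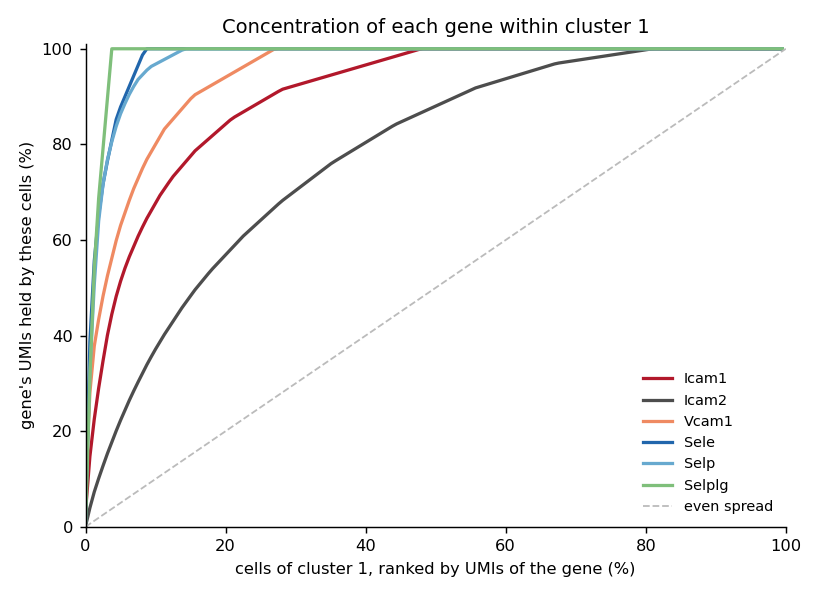
Cells of cluster 1 ranked from the most to the fewest UMIs of a gene (x axis, percent of the 799 cells) against the percent of the gene's UMIs they hold (y axis). The first 5% of cells hold 87.8% of *Sele* and 86.4% of *Selp*, all 48 UMIs of *Selplg* lie in 30 cells, and *Icam2* is closest to the dashed line of an even spread.

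The 4 genes tended to be detected in the same cells of cluster 1, in 745 cells thinned to 5,000 UMIs. *Selp* was present in 64.3% of the 42 cells with *Sele* (interval 48.0 to 78.4) and in 8.11% of the cells without it. *Vcam1* was present in 57.1% and 18.8%, and *Icam1* in 66.7% and 32.7%. All 3 shares were higher in the *Sele* cells in each library. *Sele* was found in 8.85%, 5.03% and 1.32% of the thinned cells of libraries 1 to 3. Few of the 42 cells thus came from library 3, and library 1 gave the most. Among the 84 cells with *Selp*, *Icam1* was found in 61.9% against 31.2% of the other cells and *Vcam1* in 52.4% against 16.9%, again in 3 of 3 libraries. All 4 genes were detected together in 17 cells (2.28%) of cluster 1 and in no thinned cell of any other cluster, which for the 5377 cells of cluster 2 allows a share of up to 0.0558%. None of the 4 was detected in 390 of the 745 cells.

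*Icam2* went the other way. It was found in 47.6% of the *Sele* cells and 75.0% of the rest, and in 54.8% and 75.8% by *Selp*. By *Icam1* the shares were 64.0% and 78.4%, and by *Vcam1* 65.4% and 75.6%. Each time *Icam2* was less frequent in the cells with that gene in all 3 libraries, for *Sele* with few cells in library 3. The capillary gene *Gpihbp1*, which anchors lipoprotein lipase, showed the same direction, at 26.2% of the *Sele* cells and 65.0% of the rest, and at 27.4% and 67.3% by *Selp*. *Cdh5*, the VE-cadherin gene, was as common in the *Sele* cells (90.5%, interval 77.4 to 97.3) as in the rest (92.5%) within counting error. The chemokine gene *Ccl2* was found in 78.6% of the *Sele* cells against 20.5%, and *Cxcl1* in 47.6% against 16.6%. The venous genes *Nr2f2* and *Ackr1* were found in 36.9% and 7.14% of the *Selp* cells against 15.3% and 0.454%, and the arterial gene *Gja5* in 1.19% against 6.81%. These partner genes come from the marker and inflammatory lists and were chosen after their values were seen. Most other venous and arterial markers are not given for the *Selp* cells, so no vessel type is read from these values. Of the 6 venous markers, which include *Vcam1* and *Selp*, 3 were called higher in cluster 1 than in cluster 2 and 1 lower. The 1 called lower was *Nr2f2*, at a log2 ratio of -1.12, whereas *Gja5* was called higher, at 1.93.

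**Figure D4:**
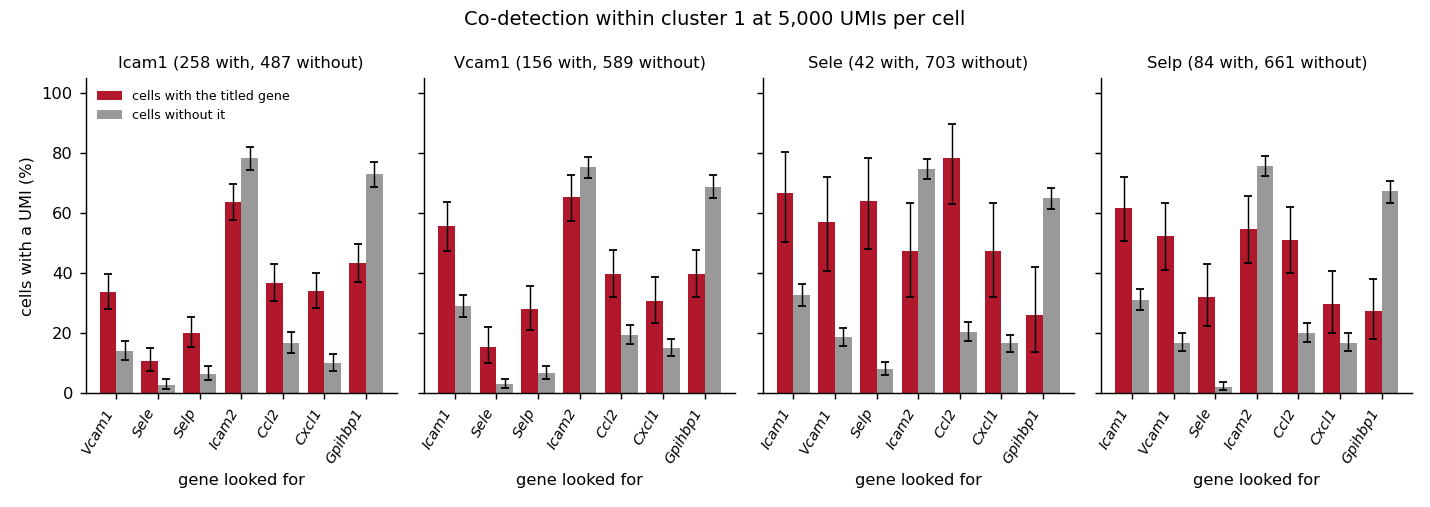
Percent of cells of cluster 1 with a UMI of the gene named on the x axis (y axis, at 5,000 UMIs per cell), in cells with (red) and without (grey) the gene in the panel title; error bars are exact 95% binomial intervals. The other genes called higher and the chemokines *Ccl2* and *Cxcl1* are more frequent, and *Icam2* and *Gpihbp1* less frequent, in the red cells.

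Cluster 1 also held genes of other cell types. Its summed level of 7 macrophage markers was 5.0 UMIs per 10,000 (libraries 6.74, 6.42 and 1.47) against 0.111 in cluster 2, and all 7 were detected. The 6 pan-leukocyte markers summed to 4.11 (2.24 to 5.21) against 0.392, and the 8 fibroblast or stromal markers to 2.73 (2.37 to 3.85) against 0.168. Of this last sum *Dcn* alone gave 2.35, and *Lum* was at 0.114 against 0.00527 in cluster 2. *Col1a1*, at 0.0262 against 0.0169, and *Pdgfra*, at 0.0131 against 0.00705, were low in both clusters. The 6 capillary markers, themselves endothelial genes, summed to 82.8 (73.2 to 98.7) against 5.88, and *Fabp4* alone gave 65.0 of this. Against cluster 2, 5 of the 6 were called higher and 1 lower, beside 20.0% and 10.4% of all genes. The 1 called lower was *Aplnr*, at 1.58 against 3.84. Of the cells of cluster 1 at 5,000 UMIs, 81 held a *Ptprc* or *Tyrobp* UMI, both leukocyte genes, and 664 held neither. *Sele*, *Selp* and *Vcam1* stood at 0.328, 1.25 and 1.05 UMIs per 10,000 in the 664 cells and at 0.0988, 1.09 and 0.790 in the 81, with overlapping libraries for each. *Icam1* stood at 2.36 (libraries 1.68 to 3.16) and 2.89 (1.82 to 5.71), so the ranges overlapped. *Icam2* was lower in the 81 cells, 1.48 against 4.87, without overlap between libraries.

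*Selplg* in cluster 1 followed the leukocyte genes. Of its thinned UMIs, 20 were in the 81 cells and 3 in the 664 others, a level of 0.494 against 0.00904. In the 15 cells with a *Selplg* UMI, *Tyrobp* was found in 80.0% against 9.04% of the rest and *Cdh5* in 53.3% against 93.2%. Without the cells of clusters 0, 1 and 2 that held a *Ptprc* or *Spi1* UMI, the log2 ratio of *Selplg* to cluster 2 went from 3.79 to 1.34. Under the same change the log2 ratios of *Icam1*, *Vcam1* and *Selp* in cluster 1 were 2.21, 6.10 and 7.16 and that of *Sele* was 7.58.

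In cluster 5 the cells were split by *C1qb*, a complement gene of macrophages, and *Mpo*, the myeloperoxidase gene of granulocyte progenitors. *Selplg* stood at 0.422 UMIs per 10,000 in the 682 cells with *C1qb* alone, 0.417 in the 326 with *Mpo* alone and 0.366 in the 514 with neither, and the libraries of the 3 sets overlapped. *Icam1* was highest in the *C1qb* cells, at 0.396 (libraries 0.366 to 0.428), above the *Mpo* cells at 0.221 (0.0833 to 0.364) but overlapping with the cells with neither at 0.241 (0.194 to 0.373). *Icam2* was highest in the cells with neither marker, at 0.805 (0.548 to 1.04). This range overlapped with the *Mpo* cells at 0.528 (0.436 to 0.645) and the *C1qb* cells at 0.478 (0.236 to 0.681). *Cdh5* was found in 35.0% of the cells with neither marker and in 18.8% and 20.2% of the *C1qb* and *Mpo* cells.

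In the fibroblast-like cluster 4 the 26 cells with most *Vcam1*, 5% of its 518 cells, held 73.4% of its *Vcam1* UMIs, and without the 8 highest cells the level there was 0.184 UMIs per 10,000. *Col1a1*, a collagen gene, was found in 68.9% of the 45 *Vcam1* cells against 42.6% of the rest, and *Cdh5* in 22.2% against 14.6%. *Ccl2* was found in 24.4% against 2.36%, in the same direction in 3 of 3 libraries. Cells with and without *Pdgfra*, the receptor gated against in the sort, whose RNA stood at 0.580 UMIs per 10,000 in this cluster, had overlapping *Vcam1* levels of 0.313 (0.286 to 0.321) and 0.360 (0.234 to 0.468).

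The genes around the adhesion molecules were followed in 9 lists, which were chosen with earlier results of these data known. Their counts in cluster 1 stand beside 20.0% of all genes called higher and 10.4% called lower. Of the 16 NF-kB factors and feedback genes, 15 reached the minimum level in the comparison of cluster 1 with cluster 2, and 15 were called higher, with a median log2 ratio of 3.34 against 0.10 over all genes tested. *Traf1*, a TNF receptor adaptor, rose from 0.00662 to 0.709 UMIs per 10,000 (log2 ratio 6.74), and *Irf1*, *Tnfaip3* and *Nfkbiz* had log2 ratios of 4.46, 4.44 and 4.11. Of the 17 inflammatory endothelial genes, 16 reached the minimum and 16 were called higher, with a median of 7.91, led by the cytokine gene *Il1a* (9.74) and the chemokine genes *Cxcl10* (9.38), *Ccl2* (8.91) and *Ccl7* (8.84). Of the genes in these lists, many reached the minimum only through cluster 1 and so could not be called lower. Several were also among the leading genes of cluster 1. The counts and medians are therefore descriptions and add nothing beyond the values of the genes. Of the 18 cytokine receptors and adaptors upstream of NF-kB, 14 reached the minimum and 12 were called higher, with *Csf2rb* (5.70), *Tnfrsf1b*, a TNF receptor (5.50), and *Tlr2* (4.20) foremost. These 3 reached the minimum only through cluster 1, at 0.251, 0.478 and 0.212 UMIs per 10,000. They were also called higher in cluster 5, which holds macrophage and granulocyte genes, at 0.313, 0.211 and 0.178. How much of them in cluster 1 came from its cells with leukocyte genes was not tested.

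Genes of passage between endothelial cells were also higher in cluster 1. All 11 of the transmigration and junction list reached the minimum and 9 were called higher, foremost *Jam2* (log2 ratio 4.38), *Cd200* (3.37) and *Pvr* (2.95). *Pecam1* and *Cdh5* had log2 ratios of 1.27 and 1.21, and in the arterial-like cluster 0 they had 1.14 and 1.12. In cluster 0 they were the 2 genes of this list called higher, beside 9.15% of all genes. The median of the list was 0.92 in cluster 0 and 1.27 in cluster 1. In the shedding and anchoring list 3 of 8 were called higher, with *Snx20*, which binds PSGL-1, at 3.60, *Actn1* at 1.69 and *Msn* at 1.38, while *Adam17*, the sheddase of selectins and VCAM-1, was at 0.52. Among the 10 other adhesion ligands and selectins, 2 were called higher and 1 lower of 6 that reached the minimum, numbers too small to set apart from the 20.0% and 10.4% of all genes. *Cd44* was at 3.94 and *Podxl* at 1.60, and *Madcam1*, the ligand of an intestinal homing integrin, was at -2.90, with its highest level of 0.221 UMIs per 10,000 in cluster 0. *Glycam1* had no UMI in any cluster. *Jam2*, *Pvr*, *Snx20* and *Cd44* reached the minimum only through cluster 1. In cluster 2 they stood at 0.0834, 0.0878, 0.0127 and 0.0244 UMIs per 10,000, so they could not have been called lower.

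Leukocyte integrins are the counterparts of the ICAMs and VCAM-1. The integrin list held 10 genes, most with products that bind ICAMs or VCAM-1. Of these 10 genes, 6 reached the minimum in cluster 5 against cluster 2. There 4 were called higher and 2 lower, beside 10.4% and 15.1% of all genes. *Itgam*, *Itgal* and *Itgb2*, the chains of Mac-1 and LFA-1, had log2 ratios of 7.18, 6.81 and 6.43, and *Itga4*, the alpha chain of VLA-4, 3.16. *Itgam*, *Itgal* and *Itgb2* stood at 0.00206, 0.00199 and 0.00399 UMIs per 10,000 in cluster 2. They reached the minimum only through cluster 5, so their count adds nothing beyond these values. The 2 called lower were *Itgb1*, the beta chain of VLA-4 and of many other integrins, at 2.15 UMIs per 10,000 there when cluster 2 had 4.99 and cluster 1 had 9.17, and *Itga9*, at 0.183 against 0.571 in cluster 2. *Itgb2* was higher still in the megakaryocyte-like cluster 6, at 0.561 UMIs per 10,000 against 0.344 in cluster 5. In cluster 1, 2 of 5 integrins at the minimum were called higher, *Itgam* (6.11) and *Itgb2* (5.11), which reached it only through cluster 1. In the thinned cells of cluster 1, *Itgam* and *Itgb2* were found in 19.8% and 24.7% of the 81 cells with *Ptprc* or *Tyrobp*. They were found in 0.301% and 0.452% of the others.

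Of the 7 integrin activation genes, 6 were called higher and 1 lower in cluster 6, beside 10.9% and 17.2% of all genes. *Fermt3* and *Apbb1ip* reached the minimum in this comparison only through cluster 6. *Fermt3*, the kindlin of blood cells, was at 9.15 UMIs per 10,000 in cluster 6, at 1.57 in cluster 5 and at 0.0206 in the reference cluster 2. In cluster 5, 2 of the 7 were called higher, *Fermt3* (log2 ratio 6.25) and *Apbb1ip* (5.40), both at the minimum only through cluster 5, and 1 lower, *Fermt2* (-3.53). In cluster 1 the numbers were 2 and 1. Of the enzymes that build selectin ligands, in cluster 5, 1 of 9 at the minimum was called higher, *Gcnt1* (2.39), and 1 lower, *Chst2* (-3.82), a share near that of all genes, 10.4% higher and 15.1% lower. In cluster 6 there were 6 higher and 1 lower of 9, and in cluster 1 there were 3 and 1 of 8. *Fut7*, the fucosyltransferase of selectin ligands, was found only in cluster 5, at 0.00458 UMIs per 10,000.

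**Figure D5:**
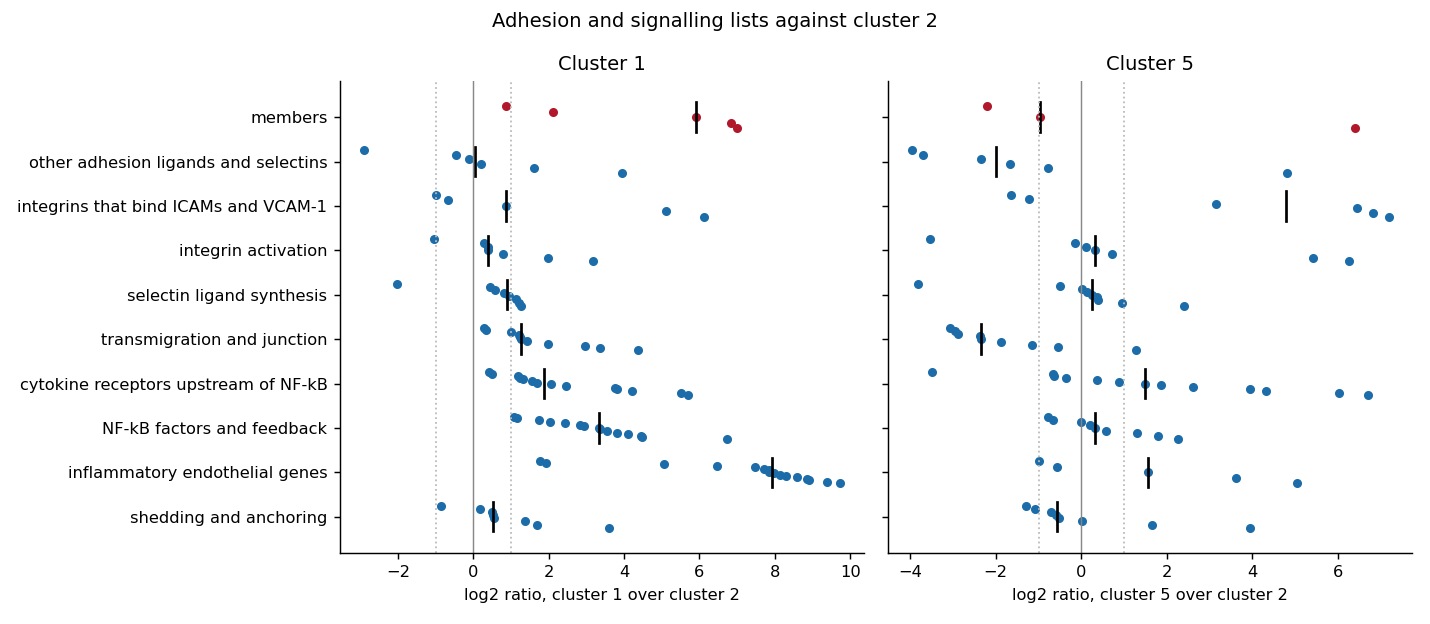
Log2 ratio to cluster 2 (x axis) of the genes of each list (y axis) that reached 0.1 UMIs per 10,000 in the higher cluster, for cluster 1 (left) and cluster 5 (right). Each point is a gene, black bars are medians and dotted lines mark 2-fold; in cluster 1 all 15 NF-kB genes and all 16 inflammatory genes lie above 2-fold, and in cluster 5 the integrins spread from -1.64 to 7.18. The lists were chosen with earlier results of these data known.

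The genes with the most similar pattern were ranked by Pearson's r of log2 levels over 21 points, the 7 clusters in 3 libraries, which share libraries and cells. For *Icam2* the 5 nearest of 5499 genes were *Ecscr* (0.99), *Cdh5*, *Sox7*, *Mmrn2* and *Acvrl1* (0.97). For *Icam1* they were *Gngt2* (0.98), *Tnfaip2*, *Ubtd1*, *Ets2* and *Adgrl4* (0.96). *Vcam1* was nearest to *Igfbp7* (0.95), *Iigp1*, *Pgf*, *Tspan7* and *Tnfrsf12a* (0.94), and *Selp* to *Sh2d5* (0.96), *H2-Q6*, *Rnf6*, *Cd274* and *Tmem140* (0.94). *Sele* was nearest to *Il1rn* (0.97), *Fosl1*, *Hif1a*, *Gpnmb* and *Sqstm1* (0.96), and *Selplg* to *Fcrls* (0.97), *Ms4a6b*, *Milr1*, *Csf1r* and *Aif1* (0.96). Among the 6 genes themselves r was highest for *Sele* with *Selp* (0.93) and *Icam1* with *Icam2* (0.89), and lowest for *Icam2* with *Selplg* (-0.03).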

How the data were processed

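Single-cell RNA of sorted heart endothelium, fresh and co-aggregated, was captured with 10x Genomics 3′ version 3 chemistry. The authors aligned reads to mm10 (GRCm38), counted UMIs with Cell Ranger 3.1.0, merged the libraries, corrected for batch and kept singlets, and they deposited whole-number counts per Ensembl gene and cell, with Leiden cluster numbers made in scanpy 1.8.2. The submitters' processing notes also name Seurat 3.1.5. The strand setting of the counting is not given in the sources used here. Antisense genes overlap *Icam1*, *Vcam1* and *Selp*, and those in the table held 1 to 76 UMIs.

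Of 27,998 genes, 27,645 were named from GENCODE M21, counts of equal names were summed, and the 353 without a name held 0.0195% of UMIs. The deposited normalized values and UMAP coordinates were not used. Levels are UMIs per 10,000 UMIs of the cluster with exact Poisson intervals, shares have exact Clopper-Pearson intervals and ratios exact conditional binomial intervals, all at 95% and for counting error only. Each cell was thinned to 5,000 UMIs (seed 1), which left out 90 cells. A count of 0 was read as at most 3. With 1 matrix that ties no cell to a pool, no test was made. Similar patterns were ranked on log2(level + 0.01) among genes at 0.5 UMIs per 10,000 or more in a cluster. Scrublet (seed 0, scanpy 1.11.5) called 8 cells (0.0837%), too few to count as a working doublet search. The text names the 6 genes, the genes of each list with the largest ratios, and the 5 most similar genes. The genes and lists were chosen with earlier results of these data known. The step that computes ratios and their intervals was checked on simulated counts with known changes, and the rule that calls genes was not. Alternatives left out each library, doublets or cells with leukocyte genes, changed scaling, thinning and thresholds, and, chosen after seeing the data, left out shared barcodes or the 8 highest cells or scaled the ratios without the 50 most abundant genes. Tables were handled with pandas 2.3.3, intervals computed with scipy 1.17.1 and numpy 2.4.6 under Python 3.11.15, and plots drawn with matplotlib 3.10.9.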

Additional observations from a re-analysis of the deposited data

How the results depend on the processing

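Of 18 ratios to cluster 2, 14 were called, and their 130 alternative values all kept the sign and 2-fold. Some of these values could hardly differ from the main one. Scrublet called no cell in clusters 0 to 4, and only 26 cells had a shared barcode. A call also required the same direction in each library, so leaving out 1 library could hardly change a sign. The tally is therefore a description. Leaving out 1 library at a time moved the log2 ratio in cluster 1 to 1.97 to 2.23 for *Icam1*, 5.62 to 6.25 for *Vcam1*, 6.19 to 7.52 for *Sele* and 6.20 to 7.25 for *Selp*, and that of *Icam2* in cluster 0 to 1.22 to 1.32. The mean over cells in place of summed counts gave 2.19 for *Icam1*, 5.57 for *Vcam1* and 6.20 for *Selp*. Thinning gave 5.64 for *Vcam1* and 6.21 for *Selp*. Without cells with a *Ptprc* or *Spi1* UMI the values were 2.21 for *Icam1*, 7.16 for *Selp* and, in cluster 0, 1.31 for *Icam2*. In settings chosen after seeing the data, leaving out the 8 highest cells gave 1.82 for *Icam1*, 5.34 for *Vcam1*, 6.03 for *Sele* and 6.02 for *Selp*, and scaling without the 50 most abundant genes gave 2.03 for *Icam1*. The cause of these shifts was not tested. Over the 6 comparisons, genes called higher numbered 794 to 1839 and lower 240 to 1962. They numbered 292 to 907 and 52 to 859 at 4-fold, 296 to 827 and 84 to 839 at a minimum of 0.5 UMIs per 10,000, and 1623 to 3409 and 486 to 2940 at 0.01. Depth limits the ratios that rest on few UMIs, such as those of *Icam1* in clusters 3 and 6, with 44 and 46. No paired analysis was possible because no result comes from a test, and the ratio within each library entered the calls instead.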
